A study of Mus musculus with 42 samples.

Results

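The 7 genes Ccr1, Ccr2, Ccr3, Ccr8, Cxcr4, Cxcr6 and Cx3cr1 encode chemokine receptors that guide immune cells into and through inflamed tissue. They were chosen by name, as the entries of the deposited raw count table whose Ensembl identifiers carry these symbols, and make up 7 of its 46603 genes. Their levels were measured by bulk RNA-seq in regulatory T cells (Treg) and in conventional T cells (Tconv) of the CD4+ lineage from mice of the TNFdARE strain and from WT littermates. TNFdARE mice lack an AU-rich element in the Tnf gene that normally shortens the life of its mRNA, and they develop inflammation of the gut and of the joints. All mice, WT included, also carried the DEREG transgene, which makes GFP under control of the Foxp3 gene, and the 2 cell types were sorted on that signal. Each cell type was taken from 4 sites. On the gut axis these were ileum and its draining mesenteric lymph node (mLN). On the joint axis they were synovium of the ankle and the joint-draining nodes (jLN), inguinal plus popliteal.

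The 16 groups were thus TNFdARE and WT Treg and TNFdARE and WT Tconv from each of the 4 sites, with 42 libraries in all from 3 experiments, A, B and C. Of the groups, 11 held 3 libraries and 4 held 2: TNFdARE mLN Treg and Tconv (B and C), WT synovial Treg and TNFdARE synovial Tconv (A and B). WT synovial Tconv held 1 library, from experiment A. The labels give neither the age of the mice nor how many animals stand behind a library, and p-values therefore reflect only how far these libraries spread, pooled over the groups of a fit. In such bulk samples a smaller share of cells that make a receptor and less RNA per cell cannot be told apart.

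Chemokine receptors are seven-pass membrane proteins that signal through inhibitory G proteins, turn a gradient of a small secreted chemokine into directed movement, and are then silenced by receptor kinases, arrestins and RGS proteins. CCR1 binds Ccl3, Ccl5, Ccl7 and, in mice, Ccl6 and Ccl9. CCR2 binds Ccl2, Ccl7 and Ccl12 and is best known for the egress of monocytes from bone marrow. CCR3 binds the eotaxins Ccl11 and Ccl24 and is the typical receptor of eosinophils. CCR8 binds Ccl1 and, in mice, Ccl8, and marks Treg of skin and tumours. CXCR4 binds Cxcl12 and holds cells in bone marrow and lymphoid niches. CXCR6 binds Cxcl16 and marks T cells that stay in tissue, and CX3CR1 binds Cx3cl1 and is high on monocytes, tissue macrophages and cytotoxic effector cells.

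Total counts ran from 18261064 to 30301202 per library. All 6 T cell markers examined (Cd3e, Cd3d, Cd3g, Cd4, Foxp3 and Il2ra) were detected in every library, and their summed level was 2434 to 5396 CPM (counts scaled to a common library total) in the group ranges. Libraries from synovium and ileum stood apart on markers of other cells. The WT synovial Tconv library held a summed 801 CPM of 10 macrophage and monocyte markers and 985 CPM of 5 CD8 and NK cell markers, against at most 61.3 and 83.3 CPM in the TNFdARE synovial Tconv libraries. WT synovial Treg held 12680 and 10070 CPM of 5 stromal and endothelial markers, against 1225 to 4827 CPM in TNFdARE synovial Treg, and their macrophage markers summed to 347 and 43.4 CPM. Plasma cell markers summed to 9685 CPM in TNFdARE ileal Treg A and 3242 CPM in WT ileal Treg A, above all other libraries. In the nodes the macrophage list stayed between 8.03 and 21.8 CPM in both genotypes and cell types, but single markers of other lists differed between the genotypes in jLN, as given below. B cell markers summed to at most 37.95 CPM in any library, neutrophil markers to at most 4.67 CPM, the eosinophil, basophil and mast cell list to at most 24.7 CPM and the epithelial list to at most 442 CPM, in a TNFdARE ileal Treg library. Marker sums, here and below, were scaled to library totals alone, whereas CPM of single genes also carried a normalization factor for each library.

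All 7 receptor genes are protein coding, and 6 of them lie on chromosome 9 of GRCm38, while Cxcr4 lies on chromosome 1. Ccr1 (9:123962124-123968692, minus strand), Ccr3 (9:124021972-124031689, plus strand) and Ccr2 (9:124101950-124113557, plus strand) sit side by side in the CC receptor cluster. Nearby lies Cxcr6 (9:123806475-123811760, plus strand), whereas Ccr8 (9:120092114-120094906, plus strand) and Cx3cr1 (9:119901616-120069879, minus strand) lie next to each other elsewhere on the chromosome. Promoters from 250 bases before to 50 bases after the start site, from RefSeq on GRCm38.p6, matched all 7 genes. Shown here are those of Ccr8, the receptor called in the most TNFdARE comparisons, of Ccr1 and of Cxcr6, one of 2 receptors that were higher in ileal Tconv than in ileal Treg. Ccr1 had the largest ratio of highest to lowest group mean among receptors whose lowest mean was above 0, which leaves out Ccr3. Capitals mark the matches to the motifs searched.
Ccr8, chr9:120091883-120092182, plus strand: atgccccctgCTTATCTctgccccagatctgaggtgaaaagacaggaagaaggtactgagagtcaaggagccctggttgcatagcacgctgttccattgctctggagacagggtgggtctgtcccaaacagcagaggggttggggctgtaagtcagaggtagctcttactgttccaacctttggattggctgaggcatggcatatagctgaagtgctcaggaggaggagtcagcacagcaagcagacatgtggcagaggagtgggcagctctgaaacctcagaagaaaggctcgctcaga
Ccr1, chr9:123968643-123968942, minus strand: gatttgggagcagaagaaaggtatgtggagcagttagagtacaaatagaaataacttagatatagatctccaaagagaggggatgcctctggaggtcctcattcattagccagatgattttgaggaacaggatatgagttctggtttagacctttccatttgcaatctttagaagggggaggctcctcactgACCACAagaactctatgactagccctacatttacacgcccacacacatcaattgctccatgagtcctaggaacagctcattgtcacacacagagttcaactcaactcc
Cxcr6, chr9:123806227-123806526, plus strand: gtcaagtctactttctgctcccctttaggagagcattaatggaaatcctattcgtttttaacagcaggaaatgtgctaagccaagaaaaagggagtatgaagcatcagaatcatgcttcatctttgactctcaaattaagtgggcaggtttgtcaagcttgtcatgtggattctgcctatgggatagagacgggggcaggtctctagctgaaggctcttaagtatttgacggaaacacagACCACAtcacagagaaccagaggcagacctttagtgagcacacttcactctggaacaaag

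In the Ccr8 promoter the capitals mark the GATA motif AGATAAG, read here on the other strand, whose first base lies 240 bases before the start site. In the Ccr1 and Cxcr6 promoters they mark the RUNX motif TGTGGT, also on the other strand, at 58 and 10 bases before the start site. Both strands were searched for 6 motifs. Of 32817 mouse promoters of this length, 3.05% hold the GATA motif, 16.8% the RUNX motif, 7.81% the AP-1 motif TGANTCA, 3.98% the T-box motif GGTGTGA, 8.86% the ETS motif CCGGAAG and 3.95% a shortened NF-kB motif, GGANTTNCC. The Ccr3 promoter held 1 AP-1 and 1 shortened NF-kB match and the Cx3cr1 promoter 1 RUNX match, while the Ccr2 and Cxcr4 windows held none of the 6. A match is a description of the letters and not of a factor's binding.

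Across the 16 groups, every receptor had its highest mean level in a tissue, ileum or synovium, and its lowest in a lymph node. Ccr8 was highest in TNFdARE synovial Treg, at 979 CPM, and lowest in WT mLN Tconv, at 8.08 CPM. Ccr2 was highest in TNFdARE ileal Treg, at 1061 CPM, and lowest in WT mLN Tconv, at 5.25 CPM. Ccr1 peaked in TNFdARE ileal Tconv, at 217 CPM, and was lowest in WT jLN Tconv, at 0.0515 CPM. Cxcr6 peaked in TNFdARE synovial Tconv, at 951 CPM, and Cxcr4 in TNFdARE ileal Tconv, at 238 CPM, each with its lowest mean in WT jLN Treg, at 10.2 and 31.7 CPM. The remaining receptors peaked in WT groups: Ccr3 in WT synovial Treg, at 56.6 CPM, and Cx3cr1 in the single WT synovial Tconv library, at 36.5 CPM.

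**Figure D1:**
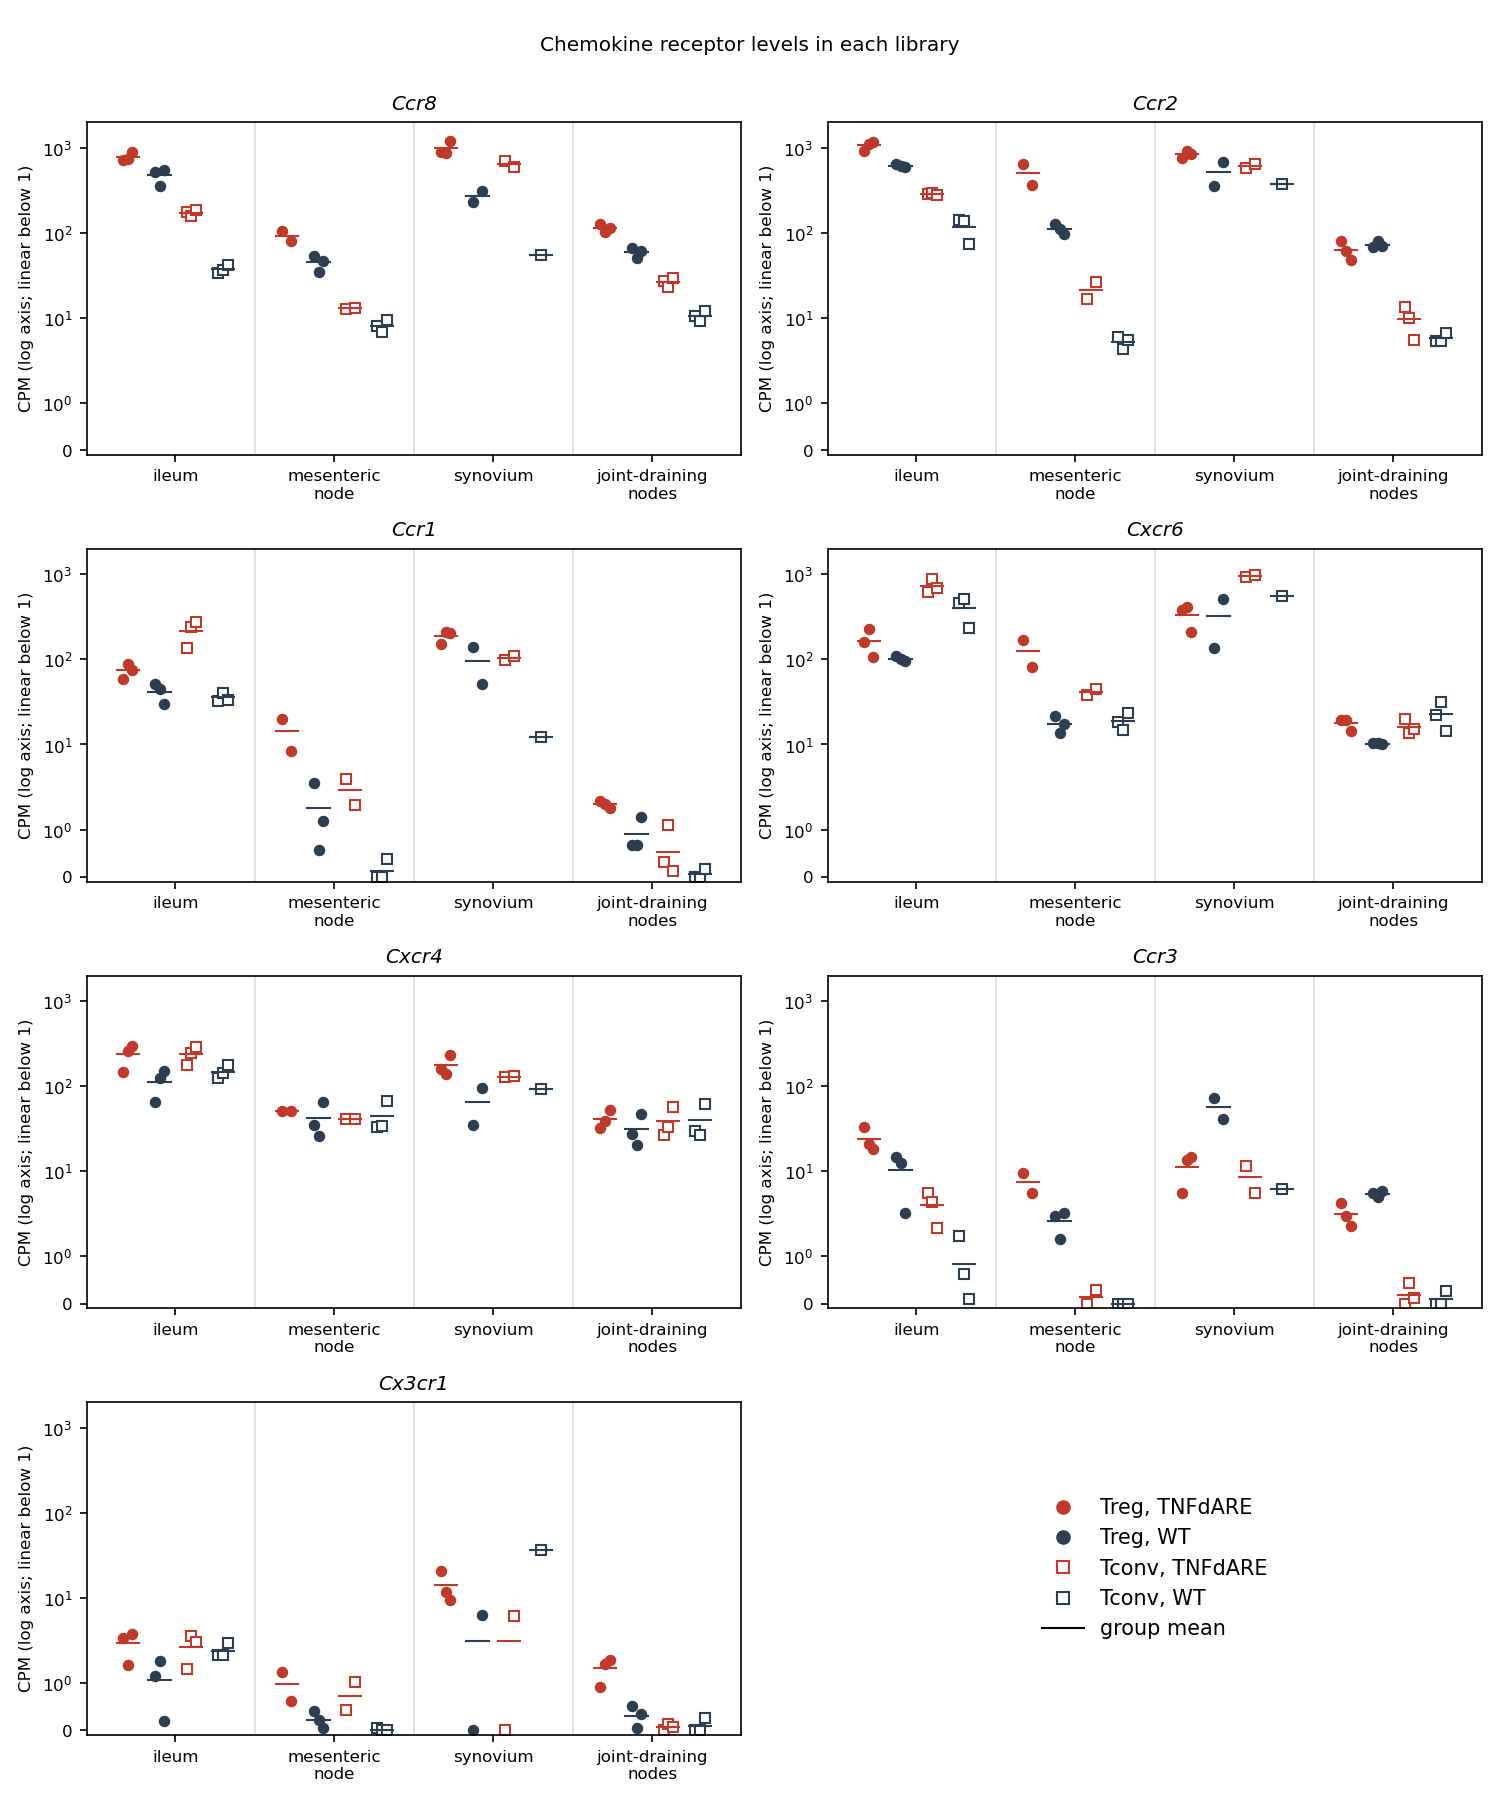
CPM of the 7 receptors in every library, on an axis that is linear below 1 CPM and logarithmic above it, with one panel per receptor and the groups along the horizontal axis. Red points are TNFdARE and dark points WT, filled circles are Treg and open squares Tconv, and a line marks each group mean. The highest group mean of every receptor lies in ileum or synovium and the lowest in a node, and Cxcr4 has the smallest ratio of highest to lowest mean, with means of 31.7 to 238 CPM.

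Not every step in these orders exceeded the spread of the libraries. When the 16 groups were ranked by mean, the libraries of neighbouring groups did not overlap in 10 of 15 pairs for Ccr8, 6 for Ccr2, 6 for Cxcr6, 4 for Ccr1, 3 for Ccr3, 3 for Cx3cr1 and 0 for Cxcr4. For Ccr8, TNFdARE synovial and ileal Treg overlapped at the top, and below them TNFdARE synovial Tconv (693 and 587 CPM), WT ileal Treg, WT synovial Treg and TNFdARE ileal Tconv followed as separate steps. Cxcr6 began with 3 separate steps, TNFdARE synovial Tconv, TNFdARE ileal Tconv and WT synovial Tconv, all above WT ileal Tconv.

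Levels between genes were compared as CPM per kilobase of exon. In TNFdARE synovial Treg, Ccr8 led with 833 CPM per kb, ahead of Cxcr6 with 173, Ccr2 with 124, Cxcr4 with 97.8, Ccr1 with 66.5, Ccr3 with 3.46 and Cx3cr1 with 3.11 CPM per kb. In TNFdARE ileal Tconv, Cxcr6 led with 378 CPM per kb, ahead of Ccr8 with 146, Cxcr4 with 132, Ccr1 with 76.7 and Ccr2 with 41.9 CPM per kb. In WT jLN Tconv the order was headed by Cxcr4, with 21.9 CPM per kb, then Cxcr6 with 11.7 and Ccr8 with 9.04 CPM per kb, and Ccr1 stood at 0.0182 CPM per kb.

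The first comparison set TNFdARE against WT within each cell type and site, with the quasi-likelihood F test of edgeR on the raw counts and p-values adjusted by the Benjamini-Hochberg method over all genes tested; a receptor was called where the adjusted p was below 0.05. Ccr8 was higher in TNFdARE cells in 6 of the 8 comparisons, Ccr1 and Ccr2 in 3 each, and Cxcr6 and Cx3cr1 in 1 each, while Ccr3 and Cxcr4 were called in none. No receptor was called lower in any of the 8. One of the 6 Ccr8 comparisons, in synovial Tconv, sets 2 libraries against a single WT library, and with the experiment letter as a block both synovial Ccr8 calls were lost and one in ileal Treg was gained. That block also moved the share of all genes called in either direction, to 0% in synovial Treg (0.156% without it) and 1.5% in ileal Treg (0.729%). In mLN Treg 4 of 7 receptors rose, where 3.84% of all genes tested did. So did 3 each in ileal Tconv and mLN Tconv, where 1.17% and 1.79% of all genes did. One receptor, Ccr8, rose in synovial Treg (0.111% of all genes called higher), synovial Tconv (0.501%), jLN Treg (3.36%) and jLN Tconv (2.29%). In ileal Treg 0 of 7 receptors were called, with 0.484% of all genes called higher.

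The 7 receptors were chosen with earlier results of these data known. Their median log2 fold change lay above that of all genes tested in each of these comparisons. It was 0.82 in ileal Treg, 1.27 in ileal Tconv, 2.07 in mLN Treg, 1.03 in synovial Treg, 0.75 in synovial Tconv, 0.76 in jLN Treg and 0.76 in jLN Tconv. In mLN Tconv it was 2.03, or 1.75 with Ccr3, which had 0 counts in all WT libraries of that group, set to its lower bound. All genes had medians within 0.02 of 0 except in synovium, where they stood at 0.12 in Treg and 0.24 in Tconv, so synovial values are to be read against those shifts. The libraries of the 2 genotypes could lie apart also where the threshold was missed. Every TNFdARE library exceeded every WT library for 4 receptors in ileal Treg (Ccr1, Ccr2, Ccr3 and Ccr8), where the same held for 7.9% of all genes tested. It did so for 6 receptors in ileal Tconv (10.5% of all genes), 6 in mLN Treg (20%), 5 in mLN Tconv (13.5%), 5 in synovial Treg (14%), 5 in synovial Tconv with its single WT library (37.1%), 4 in jLN Treg (16.5%) and 1 in jLN Tconv (7.34%).

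Foxp3, the gene that defines Treg, and Il2ra, the IL-2 receptor chain that Treg carry at high level, were higher in TNFdARE Tconv at all 4 sites. Foxp3 averaged 147 CPM in TNFdARE ileal Tconv, against 16.2 CPM in WT (log2 fold change 3.18 ± 0.22, adjusted p = 6.0e-05), and 28.9 CPM in TNFdARE mLN Tconv, against 6.75 CPM in WT (2.10 ± 0.17, 6.27e-05). It averaged 611 CPM in TNFdARE synovial Tconv, against 31.1 CPM in the WT library (4.34 ± 0.48, 0.0142), and 34.4 CPM in TNFdARE jLN Tconv, against 6.75 CPM in WT (2.375 ± 0.11, 2.54e-08). Il2ra was higher by 1.09 ± 0.22 on the log2 scale in ileal Tconv (adjusted p = 0.0411), 0.91 ± 0.14 in mLN Tconv (0.00559), 3.31 ± 0.39 in synovial Tconv (0.0179) and 0.93 ± 0.10 in jLN Tconv (4.13e-05). In the Treg groups Foxp3 averaged 871 to 1549 CPM and was called between the genotypes at no site. Il2ra was lower in TNFdARE jLN Treg (-0.40 ± 0.08, adjusted p = 0.0108) and was not called in Treg of the other sites. The part of these Treg genes in the receptor values of TNFdARE Tconv was not tested.

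**Figure D2:**
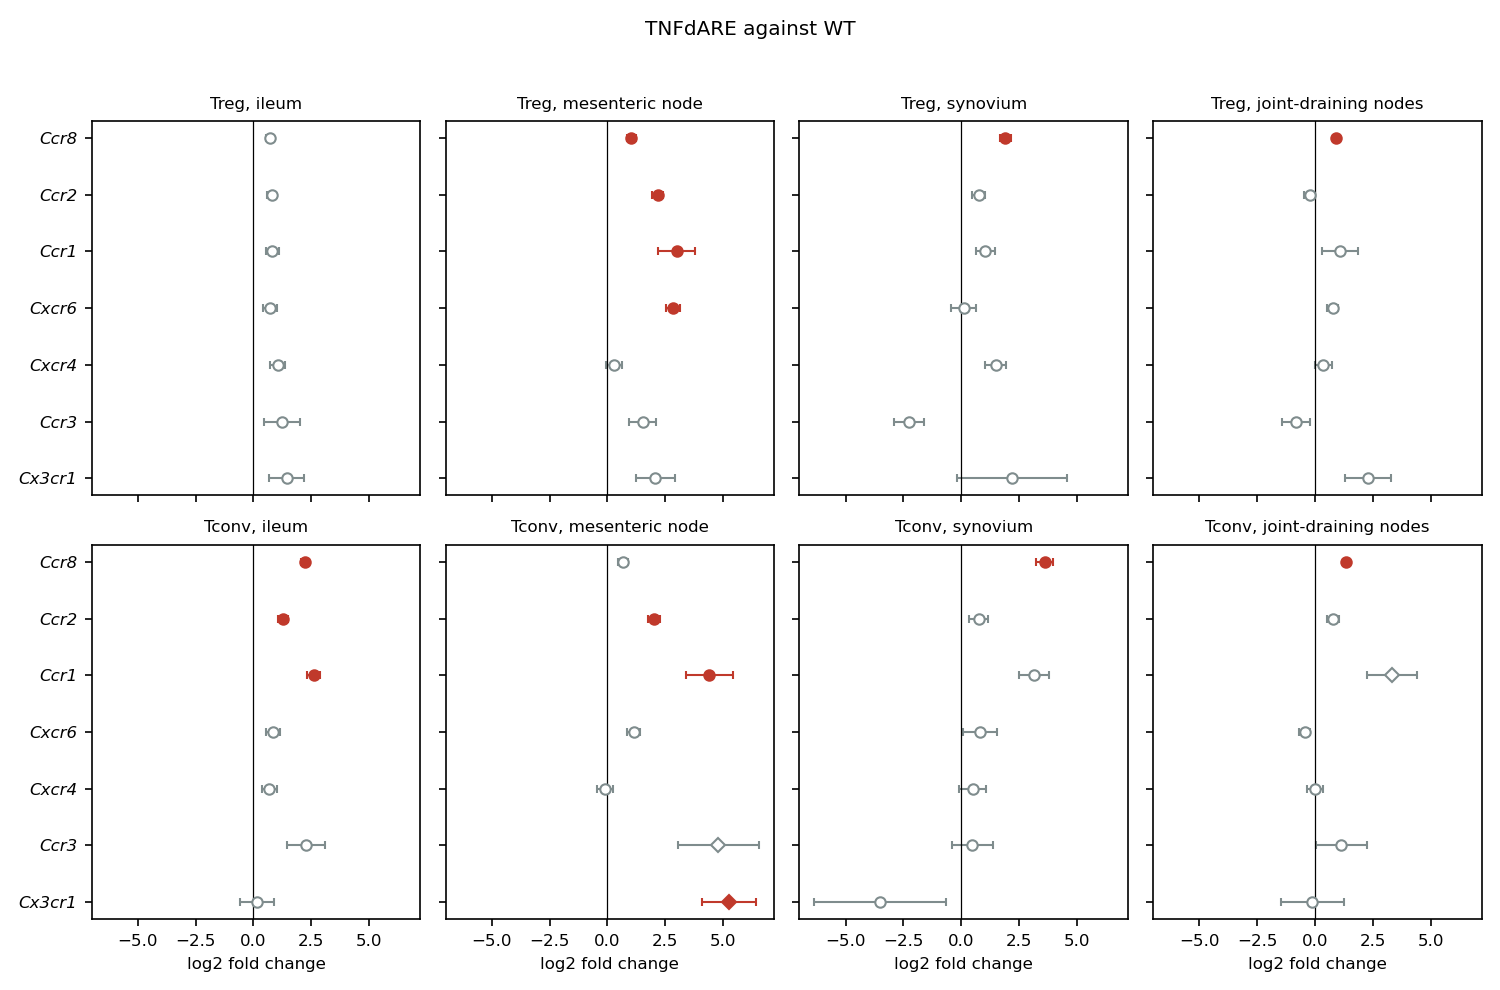
Log2 fold change of each receptor in TNFdARE over WT, with one panel per cell type and site and bars for 1 standard error. Filled red symbols have an adjusted p below 0.05, open grey ones do not, and diamonds mark a comparison in which 1 group had 3 or fewer counts. Ccr8 is filled in 6 of the 8 panels, and mLN Treg has the most filled symbols, 4 of 7.

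The second comparison set each tissue against its draining node within a cell type, with both genotypes weighted equally. All 7 receptors were higher in ileal Tconv than in mLN Tconv (34.3% of all genes called higher), in synovial Treg than in jLN Treg (19.2%) and in synovial Tconv than in jLN Tconv (16.3%). In ileal Treg 6 of 7 were higher than in mLN Treg (17%), all but Cx3cr1. On the gut axis the median log2 fold change of the receptors was 1.83 for Treg, where that of all genes was 0.03, and 4.29 for Tconv, where it was 0.08. On the joint axis it was 3.285 for Treg, where that of all genes was -0.09, and 5.86 for Tconv, where it was -0.29. Ccr8 and Ccr1 libraries from tissue lay wholly above those from the node in all 4 comparisons. Ccr2, Cxcr4 and Cxcr6 libraries did so in 3 each. By comparison this was so for 3 of 7 receptors in gut Treg (8.63% of all genes tested), 6 in gut Tconv (20.8%), 4 in joint Treg (9.79%) and 6 in joint Tconv (13.8%).

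Markers of other cells moved with these comparisons. The shares of all genes called higher and lower in tissue were 17% and 12.2% in gut Treg and 34.3% and 26.7% in gut Tconv. They were 19.2% and 18.5% in joint Treg and 16.3% and 18.4% in joint Tconv. Of the 5 stromal and endothelial markers, 3 were higher in tissue in gut Treg, 4 in gut Tconv, 4 in joint Treg and 3 in joint Tconv, and their sum was 92.6 to 1764 CPM in ileal libraries, against 109.5 to 271 CPM in mLN, and 334.5 to 12680 CPM in synovial libraries, against 173 to 300 CPM in jLN. Pecam1, of the same list, was lower in tissue in gut Tconv (log2 fold change -0.44 ± 0.07, adjusted p = 0.000129) and joint Tconv (-0.68 ± 0.13, 0.00343). All 4 plasma cell markers were higher in ileum than in mLN in both cell types, with sums of 123 to 9685 CPM in ileum, against 0.785 to 36.4 CPM in mLN. Sdc1 and Igkc were also higher in synovium than in jLN, by 6.75 and 2.16 on the log2 scale in Treg and 6.86 and 5.18 in Tconv. Jchain and Igha were not called or not tested there. All 3 epithelial markers were higher in ileum than in mLN in both cell types, with Krt8 at 13.1 in Treg and 11.3 in Tconv. On the joint axis Krt8 was lower in Treg and Epcam higher in Tconv. Of the 5 CD8 and NK cell markers 4 were higher in joint Tconv, where their sum was 32.4 and 83.3 CPM in TNFdARE and 985 CPM in WT synovial Tconv, against 28.96 to 32.8 CPM in jLN Tconv. Elsewhere this list went both ways. Cd8b1 was lower in tissue in gut Treg and gut Tconv and Eomes lower in joint Treg, while Klrb1c and Eomes were higher in gut Tconv. The macrophage sum was 4.74 to 168 CPM in ileum, against 8.49 to 21.8 CPM in mLN, and 5.79 to 801 CPM in synovium, against 8.03 to 15.1 CPM in jLN. Of the T cell markers, Cd3d was lower in tissue in all 4 comparisons. Cd3e was lower in gut Treg (-0.52), joint Treg (-0.85) and joint Tconv (-0.86). Cd4 was lower in joint Treg (-0.23) and joint Tconv (-0.98) but higher in gut Tconv (0.21). Foxp3 was higher in tissue Tconv by 1.82 ± 0.18 on the log2 scale in gut (adjusted p = 3.98e-06) and 3.19 ± 0.10 in joint (1.13e-07), and Il2ra by 1.98 ± 0.19 (2.5e-06) and 4.23 ± 0.09 (2.58e-08). The part of these genes in the receptor differences between tissue and node was not tested.

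**Figure D3:**
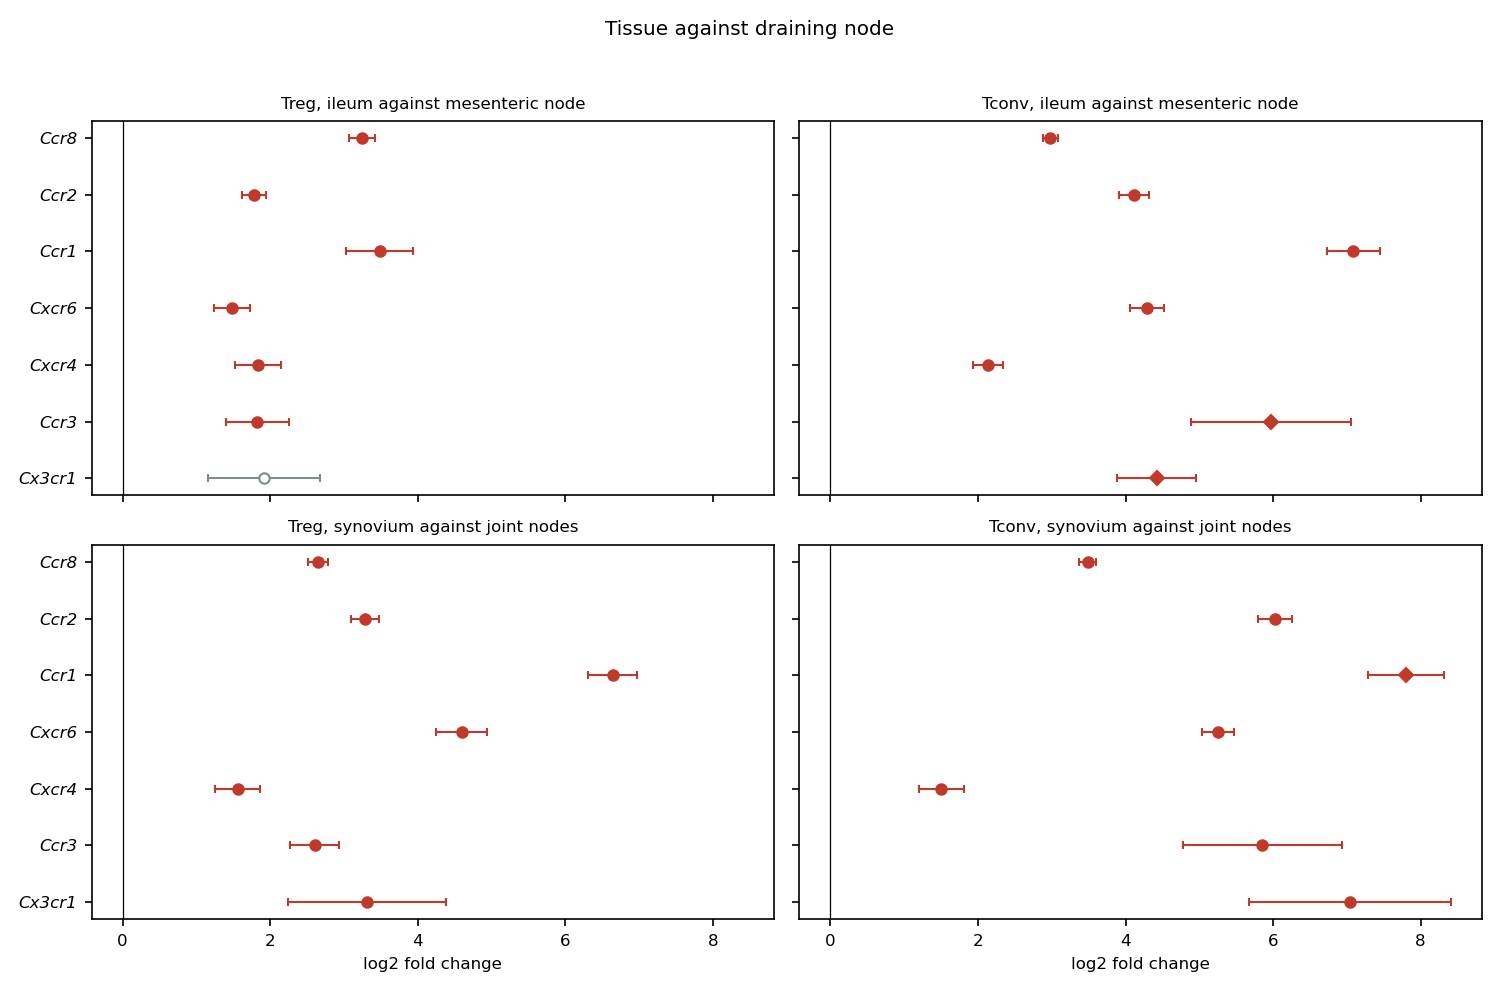
Log2 fold change of each receptor in tissue over its draining node, for ileum over mLN and synovium over jLN in Treg and in Tconv, with bars for 1 standard error. Filled red symbols have an adjusted p below 0.05. Every estimate is above 0, and Ccr1 has the largest in both Tconv panels, 7.09 in gut and 7.80 in joint.

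The third comparison set Treg against Tconv at each site. In both nodes the receptors were mostly Treg receptors: 5 of 7 were higher in Treg in mLN (20.8% of all genes called higher, 17.8% lower) and 5 of 7 in jLN (22.1% higher, 21.2% lower), where Cxcr6 was lower. In ileum Ccr2, Ccr3 and Ccr8 were higher in Treg (7.93% of all genes) and Ccr1 and Cxcr6 lower (6.85%). For Ccr1 in ileum and Cxcr6 in both nodes, the group means lay on opposite sides in TNFdARE and WT mice, as given below. In synovium, with the single WT Tconv library, 1 receptor, Ccr8, was called higher (0.952% of all genes higher, 0.145% lower). Cxcr4 was called at no site, with log2 differences between -0.20 and 0.10. Markers of other cells differed as well. In ileum Jchain (log2 fold change 3.24 ± 0.84, adjusted p = 0.0255), Igha (3.39 ± 0.87, 0.0243), Igkc (3.18 ± 0.80, 0.0214) and Epcam (3.29 ± 0.55, 0.00232) were higher in Treg. Klrb1c (-2.32 ± 0.30, 0.000397) and Eomes (-2.405 ± 0.49, 0.00761) were lower. In synovium Dcn was higher in Treg (3.55 ± 0.37) and Cd8a lower (-11.4 ± 1.1). The part of these genes in the receptor differences was not tested.

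**Figure D4:**
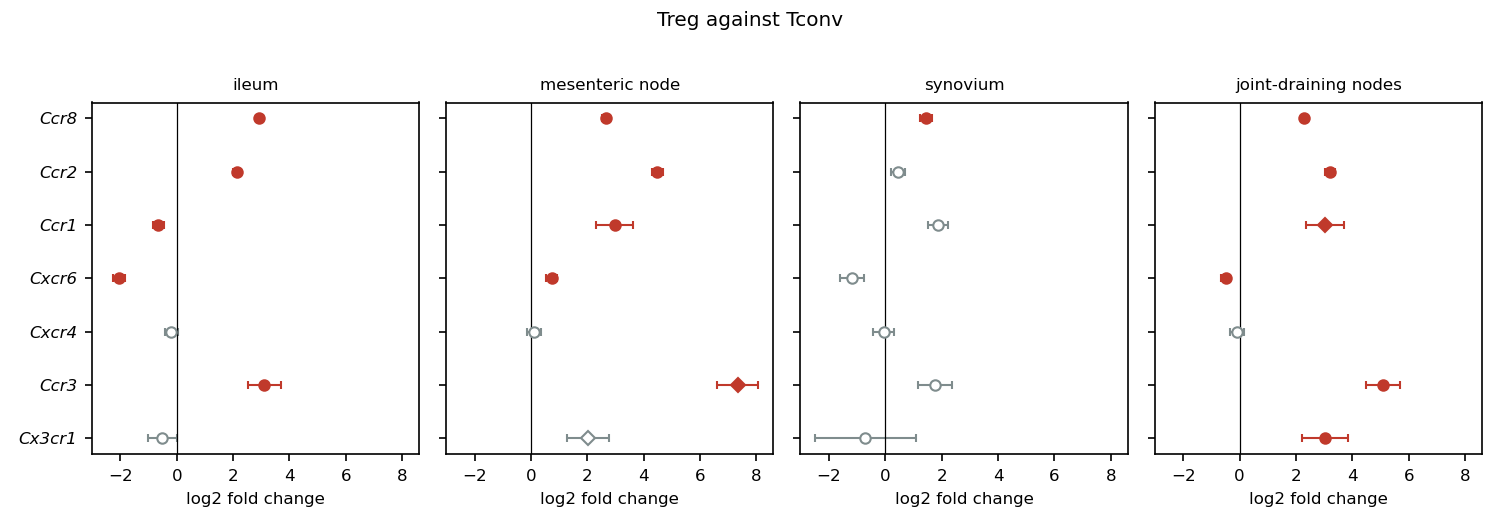
Log2 fold change of each receptor in Treg over Tconv at the 4 sites, with bars for 1 standard error. Filled red symbols have an adjusted p below 0.05. Ccr8 is filled on the positive side at all 4 sites, Cxcr6 is filled on the negative side in ileum and jLN and on the positive side in mLN, and Cxcr4 stays near 0.

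Whether these effects differed from each other was tested with interaction terms. The tissue effect was smaller in Treg than in Tconv for Ccr1, Ccr2, Ccr3 and Cxcr6 on the gut axis (4.84% of all genes called lower) and for Ccr2 and Ccr8 on the joint axis (3.57%). The genotype effect differed between ileum and mLN for Ccr8 in Tconv, where it was larger in ileum (0.164% of all genes called higher), and for no receptor in Treg on the gut axis (0.00598% of all genes called in either direction) or the joint axis (1.7%). No receptor was called for a difference of the genotype effect between Treg and Tconv in ileum (0.0188% of all genes called), mLN (0.209%), synovium (0.0891%) or jLN (0.449%). With the experiment letter as a block, Ccr8 passed in ileum, with a genotype effect smaller in Treg by 1.51 on the log2 scale (adjusted p = 0.0246), and without the block the difference was -1.52 ± 0.23 (adjusted p = 0.0771). It also passed without the library of WT ileal Treg B (adjusted p = 0.00728).

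Ccr8 was higher in TNFdARE cells in ileal Tconv, in mLN Treg and in both cell types of jLN, and it was a Treg receptor in ileum and both nodes. Its calls in synovium were lost with the experiment letter as a block. In TNFdARE ileal Tconv its 3 libraries held 177, 155 and 184 CPM, against 33.6, 36.2 and 41.2 CPM in WT ileal Tconv, without overlap. The log2 fold change was 2.22 ± 0.17 (SE; adjusted p = 0.000151). Foxp3 stood at 117 to 197 CPM in the same TNFdARE Tconv libraries, against 13.3 to 18.4 CPM in WT. TNFdARE ileal Treg held 712, 726 and 878 CPM, against 521, 353 and 547 CPM in WT ileal Treg, without overlap. The log2 fold change of 0.70 ± 0.16 did not pass (adjusted p = 0.0947), but passed with the experiment letter as a block (0.0209). Ileal Treg thus held more Ccr8 RNA than ileal Tconv in both genotypes.

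In jLN the Ccr8 levels of each cell type were below those in synovium, and the libraries of a group lay close together. TNFdARE jLN Tconv held 27.2, 22.8 and 29.4 CPM, against 10.6, 9.16 and 12.1 CPM in WT jLN Tconv. This gave a log2 fold change of 1.34 ± 0.14 (adjusted p = 3.56e-05). Foxp3 stood at 28.3 to 39.3 CPM in those TNFdARE jLN Tconv libraries, against 6.50 to 7.20 CPM in WT. TNFdARE jLN Treg held 127, 101 and 114 CPM, against 65.5, 50.5 and 61.5 CPM in WT jLN Treg. On the log2 scale the difference was 0.91 ± 0.12 (adjusted p = 0.000532). Neither pair of groups overlapped. Among markers of other cells, Igkc was higher in TNFdARE jLN Treg (2.52 ± 0.24, adjusted p = 3.76e-05) and jLN Tconv (5.45 ± 0.42, 2.7e-06). In TNFdARE jLN Treg Eomes was higher (1.52 ± 0.39, 0.0352) and Pecam1 lower (-0.39 ± 0.08, 0.00993). The remaining plasma cell, CD8 and NK cell markers were not called or not tested between the genotypes in jLN. The part of these genes in the Ccr8 values was not tested. In mLN Treg the TNFdARE libraries held 105 and 79.0 CPM, against 52.9, 34.1 and 47.0 CPM in WT. The fitted log2 fold change was 1.04 ± 0.18 (adjusted p = 0.00624), and it missed the threshold without the library of TNFdARE mLN Treg B (adjusted p = 0.1205). In mLN Tconv, 12.8 and 12.9 CPM in TNFdARE stood against 8.05, 6.80 and 9.40 CPM in WT, and the log2 fold change of 0.67 ± 0.20 was not called (adjusted p = 0.138).

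In synovium TNFdARE Treg held 895, 862 and 1181 CPM of Ccr8, against 229 and 312 CPM in WT Treg, and TNFdARE Tconv held 693 and 587 CPM, against 54.0 CPM in the single WT Tconv library. The groups lay far apart in both cell types, with log2 fold changes of 1.91 ± 0.24 in Treg (adjusted p = 0.04995) and 3.61 ± 0.37 in Tconv (adjusted p = 0.0113). Both calls were lost with the experiment letter as a block, at adjusted p = 0.47 in Treg and 0.0899 in Tconv. With that block 0% of all genes tested were called in synovial Treg, against 0.156% without it, and fewer genes were called in synovial Tconv as well. The Ccr8 call in Treg was also lost without any 1 of the 8 synovial libraries other than WT Treg B, while its log2 fold change stayed between 1.68 and 2.14. The adjusted p was 0.0614 without WT Tconv A, 0.125 without WT Treg A, 0.128 and 0.133 without TNFdARE Tconv A and B, and 0.161, 0.1475 and 0.158 without TNFdARE Treg A, B and C. The Tconv call was lost without TNFdARE Tconv A (0.0578). In synovial Tconv Foxp3 stood at 606 and 616 CPM in TNFdARE, against 31.1 CPM in WT, and Il2ra at 634 and 690.5 CPM in TNFdARE, against 68.6 CPM in WT. The sums of other-cell markers given above also differ between these groups, and the part of either in the Ccr8 values was not tested.

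Tissue Treg exceeded node Treg in Ccr8 by 3.25 ± 0.18 on the log2 scale on the gut axis (353 to 878 CPM in ileum, 34.1 to 105 CPM in mLN; adjusted p = 1.92e-06). In joint comparisons it was 2.65 ± 0.13 (229 to 1181 CPM in synovium, 50.5 to 127 CPM in jLN; adjusted p = 6.75e-07). For Tconv the differences were 2.98 ± 0.10 in gut (33.6 to 184 CPM in ileum, 6.80 to 12.9 CPM in mLN; adjusted p = 1.04e-09). In joint Tconv the difference was 3.485 ± 0.11 (54.0 to 693 CPM in synovium, 9.16 to 29.4 CPM in jLN; adjusted p = 1.12e-07). No tissue library of a cell type overlapped with its node libraries. On the joint axis the Ccr8 tissue effect was smaller in Treg than in Tconv by a log2 difference of -0.87 ± 0.20 (adjusted p = 0.0153), and on the gut axis the difference was 0.27 ± 0.19 (adjusted p = 0.518). In Tconv the genotype effect on Ccr8 was larger in ileum than in mLN by 1.53 ± 0.19 (adjusted p = 0.00824), a call lost without the library of TNFdARE mLN Tconv C (0.0629).

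As a Treg receptor Ccr8 was higher in Treg than in Tconv by 2.93 ± 0.12 on the log2 scale in ileum (adjusted p = 1.75e-07), 2.65 ± 0.14 in mLN (5.95e-08), 1.44 ± 0.20 in synovium (0.0263) and 2.3 ± 0.09 in jLN (8.17e-11). In ileum and both nodes every Treg library exceeded every Tconv library, whereas in synovium the TNFdARE Tconv libraries lay above the WT Treg libraries. The synovial Ccr8 call was lost with the experiment letter as a block (0.129) and without TNFdARE Tconv A (0.0849), TNFdARE Tconv B (0.1003) or TNFdARE Treg A (0.0639).

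Ccr2, the receptor for monocyte chemoattractant proteins, was higher in TNFdARE cells of mLN and in TNFdARE ileal Tconv, and in nodes and ileum it was a Treg receptor. In TNFdARE mLN Treg it stood at 641 and 361 CPM, against 127, 111 and 95.5 CPM in WT mLN Treg. The log2 fold change was 2.17 ± 0.23 (adjusted p = 0.000267). In TNFdARE mLN Tconv it stood at 16.6 and 26.2 CPM, against 5.97, 4.33 and 5.45 CPM in WT mLN Tconv. This gave a log2 fold change of 2.03 ± 0.27 (adjusted p = 0.00217). Foxp3 stood at 21.7 and 36.0 CPM in these TNFdARE mLN Tconv libraries, against 6.37 to 7.30 CPM in WT. Neither pair overlapped, and the macrophage list, whose cells also carry Ccr2, summed to 8.51 and 9.41 CPM in TNFdARE mLN Treg, against 8.49 to 12.7 CPM in WT, and to 13.5 and 14.3 CPM in TNFdARE mLN Tconv, against 14.2 to 21.8 CPM in WT.

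TNFdARE ileal Tconv held 284, 289 and 276 CPM of Ccr2, against 142, 138 and 73.4 CPM in WT ileal Tconv, without overlap. On the log2 scale the difference was 1.27 ± 0.21 (adjusted p = 0.0112), and it sat at the threshold without TNFdARE ileal Tconv B (0.0503). TNFdARE ileal Treg held 921, 1088 and 1175 CPM, against 633, 607 and 597 CPM in WT ileal Treg, without overlap. Here the log2 fold change of 0.79 ± 0.20 did not pass (adjusted p = 0.122), except without WT ileal Tconv C (0.0185). In synovium the TNFdARE Treg libraries held 752, 921 and 848 CPM, against 354 and 682 CPM in WT, and the log2 fold change of 0.75 ± 0.29 was called only without WT synovial Treg B (adjusted p = 0.472 with it, 0.0256 without it). In jLN Treg the Ccr2 libraries of both genotypes overlapped, at 79.1, 61.5 and 48.2 CPM in TNFdARE and 68.3, 79.0 and 70.1 CPM in WT. In jLN Tconv, 13.3, 9.95 and 5.47 CPM in TNFdARE and 5.36, 5.27 and 6.59 CPM in WT also overlapped (adjusted p = 0.24; 0.0203 without TNFdARE jLN Tconv C).

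The gap between tissue and node for Ccr2 was wider in Tconv than in Treg on both axes. In Tconv it was 4.12 ± 0.20 on the log2 scale in gut (73.4 to 289 CPM in ileum, 4.33 to 26.2 CPM in mLN; adjusted p = 1.17e-08). In joint Tconv it was 6.02 ± 0.23 (373 to 647 CPM in synovium, 5.27 to 13.3 CPM in jLN; adjusted p = 2.59e-07). In Treg it was 1.78 ± 0.16 in gut (597 to 1175 CPM in ileum, 95.5 to 641 CPM in mLN; adjusted p = 3.77e-05), where TNFdARE mLN Treg B overlapped with ileum. In joint Treg it was 3.285 ± 0.19 (354 to 921 CPM in synovium, 48.2 to 79.1 CPM in jLN; adjusted p = 1.92e-06). The differences between the cell types were -2.34 ± 0.26 in gut (adjusted p = 9.38e-06) and -2.76 ± 0.32 in joint (adjusted p = 5.27e-05). Treg exceeded Tconv in Ccr2 by 4.48 ± 0.20 in mLN (adjusted p = 8.68e-09), 3.20 ± 0.18 in jLN (3.2e-09) and 2.15 ± 0.15 in ileum (5.06e-06), with no overlap at any of the 3, while in synovium the difference was 0.44 ± 0.24 (0.557).

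Of the Ccr2 transcript windows of 100 bases, the read length, 53 of 6709 (0.79%) also occur in transcripts of another gene, so that reads from them could be counted for either. None of the windows of the other 6 receptors occurs in another gene.

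Ccr1, which answers to Ccl3, Ccl5 and related ligands, was nearly silent in nodes of WT mice and reached its top level in TNFdARE ileal Tconv. TNFdARE ileal Tconv held 137, 241 and 275 CPM, against 32.8, 40.5 and 33.7 CPM in WT ileal Tconv, without overlap. The fitted log2 fold change was 2.61 ± 0.28 (adjusted p = 0.000815). The macrophage list summed to 8.72 to 10.5 CPM in those TNFdARE libraries, against 9.50 to 36.3 CPM in the WT ones. TNFdARE ileal Treg held 59.4, 88.9 and 75.6 CPM, against 51.1, 44.6 and 30.1 CPM in WT ileal Treg, also apart. Its log2 fold change of 0.82 ± 0.26 did not pass (adjusted p = 0.21). The difference of the 2 genotype effects, -1.79 ± 0.37, was not called either (adjusted p = 0.295).

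In mLN both cell types of TNFdARE mice held more Ccr1 RNA, at low levels. TNFdARE mLN Treg stood at 20.01 and 8.41 CPM, against 3.55, 0.564 and 1.25 CPM in WT mLN Treg. The log2 fold change was 2.99 ± 0.78 (adjusted p = 0.0461). TNFdARE mLN Tconv stood at 3.96 and 1.94 CPM, against 0, 0 and 0.387 CPM in WT mLN Tconv. This gave a log2 fold change of 4.41 ± 1.02 (adjusted p = 0.0444). The libraries did not overlap, but both Ccr1 calls lay close to the threshold and were lost without any of several single libraries. In Treg these were TNFdARE Treg B (adjusted p = 0.353) and C (0.0558), WT Treg B (0.147) and C (0.119) and TNFdARE Tconv B (0.0522), and the log2 fold change then ranged from 2.21 to 4.00 over all single omissions. In Tconv they were TNFdARE Tconv B (0.1705) and C (0.08375), WT Tconv A (0.1445) and B (0.151), TNFdARE Treg B (0.05455) and WT Treg C (0.058), with log2 fold changes from 3.81 to 9.16.

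Ccr1 was not called between the genotypes at the joint sites. TNFdARE synovial Treg held 151, 208 and 206 CPM, against 141 and 51.8 CPM in WT. TNFdARE synovial Tconv held 99.1 and 111 CPM, against 12.2 CPM in the single WT library (log2 fold change 3.15 ± 0.63, adjusted p = 0.105; 0.0134 and 0.0169 without WT synovial Treg A and B). In jLN Treg, 2.17, 1.97 and 1.81 CPM in TNFdARE stood against 0.676, 0.666 and 1.39 CPM in WT, and the groups did not overlap (adjusted p = 0.488). In jLN Tconv the summed Ccr1 counts were 34 in TNFdARE and 3 in WT, a ratio of 10.7 per count sequenced with a 95% counting interval of 3.37 to 54.5, and the test did not pass (adjusted p = 0.177; 0.0459 without WT jLN Tconv C).

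The Ccr1 gap between tissue and node was the widest of the 7 receptors in Tconv, 7.09 ± 0.36 on the log2 scale in gut (32.8 to 275 CPM in ileum, 0 to 3.96 CPM in mLN; adjusted p = 1.4e-08). In joint Tconv it was 7.80 ± 0.52 (12.2 to 111 CPM in synovium, 0 to 1.13 CPM in jLN; adjusted p = 7.12e-06). In Treg it was 6.64 ± 0.33 in joint (51.8 to 208 CPM in synovium, 0.666 to 2.17 CPM in jLN; adjusted p = 6.77e-07). In gut Treg it was 3.48 ± 0.46 (30.1 to 88.9 CPM in ileum, 0.564 to 20.01 CPM in mLN; adjusted p = 0.000462), where it missed the threshold within TNFdARE mice alone (2.43, adjusted p = 0.0531). On the gut axis it was smaller in Treg by a log2 difference of -3.61 ± 0.64 (adjusted p = 0.00141). With both genotypes weighted equally, Ccr1 was higher in Treg in mLN by 2.97 ± 0.67 (adjusted p = 0.00384) and in jLN by 3.03 ± 0.66 (0.00187), and lower in Treg in ileum, with a log2 fold change of -0.65 ± 0.19 (0.0389). In ileum the Treg mean was below the Tconv mean in TNFdARE mice (74.6 against 217 CPM). It was not in WT mice (41.9 CPM in Treg, 35.7 CPM in Tconv). That ileal call was lost without TNFdARE Tconv B (0.08405) or C (0.101), WT Tconv A (0.0582), B (0.0929) or C (0.0655), and TNFdARE Treg A (0.0731) or C (0.07035). In synovium the Treg excess in Ccr1, 1.87 ± 0.37, was not called (0.0751), except without WT Treg A (0.0323) or B (0.00553).

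Ccr3, the eotaxin receptor, was a low-level receptor of Treg, and it was called between the genotypes at no site. Its highest levels were in WT joints: TNFdARE synovial Treg held 5.57, 13.5 and 14.9 CPM, against 71.9 and 41.4 CPM in WT synovial Treg, without overlap. The log2 fold change of -2.26 ± 0.65 was not called (adjusted p = 0.326). Of the 6 eosinophil, basophil and mast cell markers, Siglecf, Prg2, Epx, Fcer1a and Mcpt8 were at 0 in both WT synovial Treg libraries. The sixth, Cpa3, a mast cell and basophil protease, was at 0 in all TNFdARE synovial Treg libraries, against 25.3 and 0 CPM in WT synovial Treg A and B (adjusted p = 0.492), and its part in the Ccr3 values was not tested. TNFdARE jLN Treg held 4.25, 3.00 and 2.24 CPM, against 5.58, 5.02 and 5.80 CPM in WT jLN Treg, also lower without overlap (adjusted p = 0.516). In the gut the order was the other way round, with 33.1, 20.8 and 18.04 CPM in TNFdARE ileal Treg, against 14.9, 12.6 and 3.21 CPM in WT (adjusted p = 0.546). In mLN Treg the libraries held 9.57 and 5.52 CPM in TNFdARE, against 2.95, 1.60 and 3.26 CPM in WT (adjusted p = 0.182).

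In ileal Tconv Ccr3 stood at 5.49, 4.32 and 2.12 CPM in TNFdARE, against 1.74, 0.635 and 0.105 CPM in WT (adjusted p = 0.392; 0.0496 with the experiment letter as a block). In mLN Tconv 6 counts in TNFdARE stood against 0 in WT, at least 3.37-fold higher with WT set to a floor of 3 counts over the group, and this was not called (adjusted p = 0.289). Ccr3 was higher in tissue than in node in all 4 comparisons, by 1.83 ± 0.43 on the log2 scale in gut Treg (adjusted p = 0.012), 2.60 ± 0.34 in joint Treg (0.000287), 5.97 ± 1.08 in gut Tconv (0.000898) and 5.86 ± 1.08 in joint Tconv (0.00269). In gut Tconv 290 counts in ileum stood against 6 in mLN. The gut Treg call was lost within TNFdARE mice alone (0.151) and without TNFdARE mLN Treg C (0.0859). Treg exceeded Tconv by 7.34 ± 0.74 in mLN (adjusted p = 2.89e-05), 5.08 ± 0.60 in jLN (7.52e-06) and 3.12 ± 0.59 in ileum (0.00476), and no Treg library overlapped with a Tconv library in the nodes. The gut tissue effect on Ccr3 was smaller in Treg by a log2 difference of -4.16 ± 1.14 (adjusted p = 0.0396), a call lost without any 1 of 14 of the 22 libraries, with adjusted p from 0.0528 to 0.0925. These were TNFdARE ileal Tconv A and B, WT ileal Tconv A and B, TNFdARE mLN Tconv B, all 3 WT mLN Tconv, TNFdARE ileal Treg B and C, TNFdARE mLN Treg B and C, and WT mLN Treg A and C.

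Cxcr6, the receptor for the membrane-bound chemokine Cxcl16, was highest in tissue Tconv, and its one genotype call was in mLN Treg. TNFdARE mLN Treg held 168 and 80.7 CPM, against 21.4, 13.8 and 17.2 CPM in WT mLN Treg, without overlap. On the log2 scale the difference was 2.84 ± 0.28 (adjusted p = 0.000227), and it held without any single library. TNFdARE mLN Tconv held 38.1 and 45.0 CPM, against 18.2, 14.6 and 23.8 CPM in WT mLN Tconv, also apart. Here the log2 fold change of 1.148 ± 0.28 just missed the threshold (adjusted p = 0.0608; 0.0425 without WT Tconv C, 0.013 and 0.0127 without TNFdARE Treg B and C). TNFdARE jLN Treg held 19.6, 19.6 and 14.2 CPM of Cxcr6, against 10.3, 10.3 and 10.03 CPM in WT jLN Treg. Its log2 fold change of 0.76 ± 0.23 was not called (adjusted p = 0.0723), but passed with the experiment letter as a block (0.0283) and without WT jLN Tconv B (0.0434) or C (0.0213). In jLN Tconv the libraries overlapped, at 19.9, 13.6 and 15.2 CPM in TNFdARE and 22.1, 31.2 and 14.6 CPM in WT (adjusted p = 0.52).

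In tissue the Cxcr6 libraries of TNFdARE ileal Tconv held 620, 885 and 683 CPM, against 455, 519 and 236 CPM in WT (log2 fold change 0.86 ± 0.30, adjusted p = 0.36). Those of TNFdARE synovial Tconv held 919 and 983 CPM, against 552 CPM in WT (adjusted p = 0.835). Treg held 161, 228 and 107 CPM in TNFdARE ileum, against 108, 100 and 95.7 CPM in WT, and 382, 412 and 207 CPM in TNFdARE synovium, against 135 and 507 CPM in WT, where the genotypes overlapped. Cxcr6 was higher in tissue than in node by 4.29 ± 0.23 in gut Tconv (adjusted p = 2.31e-08), 5.25 ± 0.21 in joint Tconv (3.53e-07), 4.60 ± 0.35 in joint Treg (9.51e-06) and 1.48 ± 0.25 in gut Treg (0.0019). The gut difference was smaller in Treg by -2.80 ± 0.35 (adjusted p = 3.1e-05), and in TNFdARE Treg alone it was 0.44 and not called (0.49). Against Tconv, with both genotypes weighted equally, Cxcr6 in Treg was lower in ileum by a log2 fold change of -2.06 ± 0.22 (adjusted p = 0.000101), higher in mLN by 0.74 ± 0.20 (0.0124) and lower in jLN by -0.50 ± 0.16 (0.0224). In mLN the Treg and Tconv means were 124.5 and 41.6 CPM in TNFdARE mice, but 17.5 and 18.9 CPM in WT mice. In jLN they were 17.8 and 16.2 CPM in TNFdARE mice, but 10.2 and 22.65 CPM in WT mice. The ileal groups did not overlap, while the node calls were lost without single libraries: in mLN without TNFdARE Tconv B (0.0553) or TNFdARE Treg B (0.081). In jLN the call was lost without TNFdARE Tconv A (0.0742), WT Tconv B (0.0764), TNFdARE Treg C (0.0705), WT Treg B (0.0514) or WT Treg C (0.0521). In synovium all Treg libraries lay below all Tconv libraries, and the log2 fold change of -1.17 ± 0.43 was not called (0.35), except without WT Treg B (0.0208).

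Cxcr4, which answers to Cxcl12, varied least: the ratio of its highest to its lowest group mean was 7.52, against 93.2 for Cxcr6 and 4225 for Ccr1. It was called in no genotype comparison and at no site between Treg and Tconv. TNFdARE ileal Treg held 148, 262 and 296 CPM, against 65.0, 124 and 149 CPM in WT ileal Treg, with the lowest TNFdARE library just below the highest WT one. The log2 fold change of 1.06 ± 0.33 (adjusted p = 0.192) passed with the experiment letter as a block (0.00933). TNFdARE ileal Tconv held 179, 243 and 292 CPM, against 125, 142 and 177 CPM in WT (adjusted p = 0.695). In both groups of ileal libraries experiment A was lowest and C highest within each genotype. TNFdARE synovial Treg held 160, 138 and 232 CPM of Cxcr4, against 34.6 and 94.7 CPM in WT, without overlap. Here the log2 fold change of 1.497 ± 0.45 was called only without WT Treg B (adjusted p = 0.349 with it, 0.0171 without it). In the nodes all 4 genotype comparisons overlapped, within 20.3 to 66.1 CPM.

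Between tissue and node Cxcr4 was higher by 1.83 ± 0.31 on the log2 scale in gut Treg (65.0 to 296 CPM in ileum, 26.1 to 64.3 CPM in mLN; adjusted p = 0.00211) and by 2.14 ± 0.20 in gut Tconv (125 to 292 CPM in ileum, 33.4 to 66.1 CPM in mLN; 2.4e-06). On the joint axis it was higher by 1.56 ± 0.31 in Treg (34.6 to 232 CPM in synovium, 20.3 to 52.8 CPM in jLN; 0.00366) and 1.499 ± 0.305 in Tconv (93.7 to 130 CPM in synovium, 26.3 to 62.4 CPM in jLN; 0.00466). The difference of these sizes between Treg and Tconv was not called, with log2 differences of -0.30 ± 0.38 in gut (adjusted p = 0.81) and 0.03 ± 0.50 in joint (1.00). Within WT mice alone the joint calls were lost (adjusted p = 0.128 in Treg, 0.0945 in Tconv).

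Cx3cr1, the receptor for the tethered chemokine Cx3cl1, was scarce in ileum, with 0.186 to 3.73 CPM over all ileal libraries. Its one genotype call was in mLN Tconv, where 0.431 and 1.02 CPM in TNFdARE stood against 0.0415, 0 and 0 CPM in WT, or 31 against 1 summed counts. This is a ratio of 52.3 with a 95% counting interval of 8.72 to 2131 (log2 fold change 5.27 ± 1.17, adjusted p = 0.036). The groups did not overlap, and the call was lost without TNFdARE Tconv C (0.268), WT Tconv A (0.0843), B (0.134) or C (0.0971), TNFdARE Treg B (0.0563) or WT Treg B (0.0575), with log2 fold changes from 4.56 to 7.13. TNFdARE mLN Treg held 1.33 and 0.614 CPM, against 0.399, 0.219 and 0.0502 CPM in WT (adjusted p = 0.199). TNFdARE jLN Treg held 0.911, 1.69 and 1.86 CPM, against 0.507, 0.0444 and 0.336 CPM in WT (adjusted p = 0.225), with no overlap in either. In synovium the highest value of any library, 36.5 CPM, was that of WT Tconv A, the library with the most macrophage and CD8 and NK cell marker RNA, while the TNFdARE Tconv libraries stood at 0 and 6.20 CPM. TNFdARE synovial Treg held 20.9, 11.8 and 9.39 CPM, against 0 and 6.30 CPM in WT. Neither synovial difference was called (adjusted p = 0.744 in Treg, 0.835 in Tconv), and the part of the other-cell RNA in these values was not tested.

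Cx3cr1 was higher in tissue than in node by 4.42 ± 0.53 on the log2 scale in gut Tconv (1.45 to 3.60 CPM in ileum, 0 to 1.02 CPM in mLN; adjusted p = 2.12e-05). In joint comparisons it was higher by 7.04 ± 1.37 in Tconv (0 to 36.5 CPM in synovium, 0 to 0.257 CPM in jLN; 0.00361) and 3.31 ± 1.07 in Treg (0 to 20.9 CPM in synovium, 0.0444 to 1.86 CPM in jLN; 0.0348). In gut Treg the difference of 1.91 ± 0.76 was not called (0.081), except without WT ileal Treg C (0.0234). The joint calls rested on few libraries. In Tconv the call was lost without TNFdARE synovial Tconv B (2.49, adjusted p = 0.97). In Treg it was lost with the experiment letter as a block (0.117) and without any 1 of the 6 jLN Treg libraries (0.0605 to 0.0844) or TNFdARE synovial Treg A (0.0603). It turned to -1.25 without WT synovial Treg B, which leaves a WT library with 0 counts. Treg exceeded Tconv in Cx3cr1 by 3.03 ± 0.83 in jLN (adjusted p = 0.00833), a call lost without TNFdARE jLN Treg B (0.0535) or C (0.0542). In mLN the difference was 2.03 ± 0.75 (0.0504), called without WT mLN Tconv A (0.0432) or WT mLN Treg C (0.03).

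The 15 ligand genes of these receptors were examined in the same libraries. Their median log2 fold change in TNFdARE over WT was 0.66 in ileal Treg, 0.25 in ileal Tconv, 1.61 in mLN Treg and 0.62 in mLN Tconv. It was -2.50 in synovial Treg, 1.85 in jLN Treg and 2.31 in jLN Tconv, beside the medians of all genes given above. In synovial Tconv it was 0.66, or 0.19 with the 4 ligands that had 0 counts on one side set to their bound, which lies below the 0.24 of all genes. Between the genotypes the ligand that moved was Ccl5, which binds CCR1 and CCR3 and is made by T cells themselves. It was higher in TNFdARE cells in ileal Treg (45.2 CPM in TNFdARE, 12.2 CPM in WT on average; log2 fold change 1.88 ± 0.32, adjusted p = 0.0242), mLN Treg (2.19 ± 0.26, 0.000527), mLN Tconv (1.77 ± 0.25, 0.00303), jLN Treg (1.86 ± 0.26, 0.00076) and jLN Tconv (2.48 ± 0.29, 0.000133). In synovial Tconv Ccl5 was lower, with 58.2 CPM in TNFdARE on average against 813 CPM in the WT library that held the most CD8 and NK cell RNA (log2 fold change -3.76 ± 0.28, adjusted p = 0.00404). Cx3cl1 was the other ligand called, higher in TNFdARE jLN Treg (1.93 CPM in TNFdARE, 0.19 CPM in WT on average; 3.25 ± 0.86, adjusted p = 0.0408). No other ligand was called between the genotypes, of 5 to 14 tested per comparison.

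Against the node, 9 of 13 ligands tested were higher in ileal Treg, 11 of 11 in ileal Tconv, 10 of 13 in synovial Treg and 10 of 13 in synovial Tconv, with none lower. Of all genes tested, 17%, 34.3%, 19.2% and 16.3% were called higher in these 4 comparisons and 12.2%, 26.7%, 18.5% and 18.4% lower. The median log2 fold change was 7.39 in gut Treg and 5.44 in gut Tconv, or 5.28 and 5.12 with ligands that had 0 counts on one side set to their bound, and 5.91 in joint Treg and 5.20 in joint Tconv. Among them Ccl5 rose by 1.62 ± 0.17 in gut Treg (adjusted p = 0.000135), 3.22 ± 0.26 in gut Tconv (7.55e-07), 1.36 ± 0.24 in joint Treg (0.0019) and 5.95 ± 0.17 in joint Tconv (6.1e-08). Cxcl16, the ligand of CXCR6, rose by 3.17 ± 0.65 in gut Treg (0.00606), 2.13 ± 0.40 in gut Tconv (0.000629), 1.61 ± 0.56 in joint Treg (0.0458) and 2.18 ± 0.39 in joint Tconv (0.00243). Cxcl12, which stromal cells make, averaged 166 CPM in TNFdARE synovial Treg, against 1354 CPM in WT synovial Treg, and had 0 counts in all jLN Treg libraries. The 5 stromal and endothelial markers moved with it, at 1225 to 4827 CPM in TNFdARE and 10070 and 12680 CPM in WT synovial Treg against 173 to 264 CPM in jLN Treg, and their part in the ligand values was not tested.

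The 16 other chemokine receptors had median log2 fold changes between -0.20 and 0.76 in TNFdARE over WT. Among them Ccr6, the receptor of type 17 T cells, was higher in TNFdARE cells in 6 of the 8 comparisons, all but synovium. In mLN Treg it averaged 264 CPM in TNFdARE and 52.4 CPM in WT (log2 fold change 2.33 ± 0.28, adjusted p = 0.000545), and in jLN Treg 229 CPM in TNFdARE and 64.5 CPM in WT (1.79 ± 0.12, 1.43e-06). Ccr4, a skin-homing receptor also found on Treg, was higher in TNFdARE ileal, mLN and jLN Tconv. Ccr10 was lower in TNFdARE jLN Treg (-2.79 ± 0.35, 0.000283) and jLN Tconv (-2.04 ± 0.38, 0.00734), and Ccr7, which brings naive T cells to nodes, was lower in TNFdARE mLN Treg (-0.50 ± 0.11, 0.0244). Between tissue and node their medians were 1.80 in gut Treg, 2.92 in gut Tconv, 1.39 in joint Treg and 3.21 in joint Tconv. There 6 of 13 tested were higher in gut Treg and 11 of 13 in gut Tconv, with 0 and 1 lower. In the joint 6 of 14 were higher in Treg and 8 of 14 in Tconv, with 3 lower in each. The shares of all genes called higher were 17% in gut Treg, 34.3% in gut Tconv, 19.2% in joint Treg and 16.3% in joint Tconv, and those called lower 12.2%, 26.7%, 18.5% and 18.4%. In Treg Ccr7 split the axes: it was higher in ileal than in mLN Treg (1.80 ± 0.17, adjusted p = 5.58e-05) and lower in synovial than in jLN Treg (-2.47 ± 0.38, 0.000846). Synovial Tconv also held less Ccr7 than jLN Tconv, with a log2 fold change of -2.35 ± 0.13 (1.92e-06).

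The 16 genes of receptor signalling moved little between the genotypes, with medians of 0.03 to 0.37 on the log2 scale. The 3 calls were for Rgs1 in mLN Tconv (1.66 ± 0.30, adjusted p = 0.0122) and jLN Tconv (1.67 ± 0.39, 0.0322) and Rgs16 in synovial Tconv (3.07 ± 0.44, 0.0367), all higher in TNFdARE. The last of these is against a single WT library, which stood apart on macrophage and CD8 and NK cell markers. Between tissue and node 4 of 15 were higher and 3 lower in gut Treg, 8 and 5 of 15 in gut Tconv, 4 and 3 of 14 in joint Treg and 4 and 3 of 15 in joint Tconv. Among all genes 17% and 12.2% were called higher and lower in gut Treg, 34.3% and 26.7% in gut Tconv, 19.2% and 18.5% in joint Treg and 16.3% and 18.4% in joint Tconv, so that most of these counts lie near the shares of all genes. Rgs1, Rgs2 and Rgs16, which speed the switching off of G proteins, were higher in tissue in all 4. Rgs1 rose by 5.42 ± 0.27 in gut Tconv (adjusted p = 1.23e-08) and by 1.44 ± 0.16 in gut Treg (0.000182), and Rgs2 by 5.01 ± 0.49 in gut Treg (6.86e-05). Rac2, a GTPase that drives cell movement, was lower in tissue in all 4, with log2 fold changes of -0.63 ± 0.11 in gut Treg (adjusted p = 0.00248), -0.39 ± 0.07 in gut Tconv (0.000399), -0.80 ± 0.08 in joint Treg (5.39e-05) and -0.47 ± 0.09 in joint Tconv (0.0033).

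Of 8 other genes of the chromosome 9 receptor cluster, 5 of 7 tested were higher and 1 lower in tissue in gut Treg and 5 and 1 of 6 in gut Tconv. On the joint axis these were 2 and 1 of 7 in joint Treg, near the shares of all genes (19.2% higher, 18.5% lower), and 4 and 0 of 7 in joint Tconv (16.3% and 18.4%). The shares of all genes on the gut axis were 17% higher and 12.2% lower in Treg and 34.3% and 26.7% in Tconv. Ccrl2 was higher in tissue than in node in all 4 comparisons, as was Ccr1 beside them. Ccr9, the gut-homing receptor of the same cluster, was higher in ileum than in mLN (1.54 ± 0.24 in Treg, adjusted p = 0.00131; 3.65 ± 0.25 in Tconv, 1.43e-07) and lower in synovial than in jLN Treg (-8.47 ± 1.48, 0.00242). Fyco1, whose gene spans Cxcr6 on the opposite strand, was lower in ileum than in mLN, with log2 fold changes of -0.85 ± 0.29 in Treg (0.0494) and -0.47 ± 0.09 in Tconv (0.000871), while Cxcr6 was higher. No exon bases are shared between Fyco1 and Cxcr6. Cx3cr1 shares 78 exon bases, 1.73% of its own, with Gm33858 on the opposite strand, and whether counting used strand is not given in the sources used here.

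The genes whose group means ran most like those of each receptor over the 16 groups, among 15343 genes ranked by Pearson's r of mean log2 CPM, were Frmd4b (0.97), Rora (0.967) and Runx2 (0.966) for Ccr1 and Fgl2 (0.984), Rapsn (0.98) and Acsbg1 (0.969) for Ccr2. For Ccr3 they were Irak2 (0.962), Ica1 (0.956) and Rnf215 (0.952), and for Ccr8 Tmbim1 (0.979), Gata3 (0.975) and Mif4gd (0.968). For Cxcr6 they were Serpinb1a (0.976), Mmp25 (0.966) and Zeb2 (0.966), for Cxcr4 Gna13 (0.944), Vps37a (0.943) and Selenok (0.942), and for Cx3cr1 Stk35 (0.936), Stx4a (0.909) and Vps35l (0.893). Among the receptors themselves, Ccr1 and Ccr2 had an r of 0.899 and Ccr2 and Ccr3 one of 0.919. The groups share sites, experiments and libraries' sorting, and these values describe likeness of levels only.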

How the data were processed

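Bulk RNA-seq was measured in 42 libraries of sorted Treg and Tconv. Per the labels' protocols, RNA was amplified with the SMART-Seq v4 PLUS kit and read as single reads on a NovaSeq6000. The submitters' processing notes name cutadapt 1.15, Bowtie2 2.3.3.1 and GRCm38; the counting program and its annotation are not given in the sources used here. The deposited raw table holds whole-number counts per gene, and a second deposited table holds FPKM values of 18964 genes made by the authors. Of the FPKM genes, 97.2% held values repeated between libraries and no value was 0, so it served as an alternative only.

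Gene symbols came from GENCODE M21, which gave one to 46005 of the 46603 identifiers. The 7 receptors and all gene lists were chosen with earlier results of these data known. Counts were tested with edgeR 4.0.16 (TMM factors, filterByExpr, quasi-likelihood F test) in R 4.3.3, in one fit per site for genotype and cell type comparisons, one per cell type and axis for tissue comparisons, and one per axis for their difference between cell types, with p-values adjusted by the Benjamini-Hochberg method over all genes tested and 0.05 as the threshold. CPM of single genes used TMM factors computed once over all 42 libraries, whereas each fit computed its own. Summed CPM of marker lists used library totals without these factors. A standard error is the log2 fold change divided by the square root of F. The test was checked on simulated counts. DESeq2 1.42.0 and limma 3.58.1 (on log2 FPKM plus 1) were alternatives, beside RLE factors, no filter on low counts, other choices of libraries in a fit and leaving out each library.

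The replicate letters mark the 3 experiments. Over genes with a mean log2 CPM above 1, the deviations of same-letter TNFdARE and WT libraries from their group means correlated above 0.1 in 15 of 18 pairs (lowest -0.0374, median 0.322, highest 0.524), and the fit with the letter as a block is given beside a result where it changed the call. Beside the receptors, the genes named are the 3 most like each one by Pearson's r of mean log2 CPM (prior count 2), and from each list up to 4 genes per comparison with the smallest adjusted p among those called, with other list members where their values are given. Counting intervals and floors of 3 counts cover counting error only.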

Additional observations from a re-analysis of the deposited data

Results flagged for a closer look

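For 7 results the size of one difference depended on a second factor by an interaction test over all genes (edgeR, Benjamini-Hochberg adjusted). In Tconv the TNFdARE over WT log2 fold change of Ccr8 was larger in ileum than in mLN by 1.53 ± 0.19 (adjusted p = 0.00824). On the gut axis the tissue over node log2 fold change was smaller in Treg than in Tconv for Ccr1 (-3.61 ± 0.64, adjusted p = 0.00141), Ccr2 (-2.34 ± 0.26, 9.38e-06), Ccr3 (-4.16 ± 1.14, 0.0396) and Cxcr6 (-2.80 ± 0.35, 3.1e-05). On the joint axis it was smaller in Treg for Ccr2 (-2.76 ± 0.32, 5.27e-05) and Ccr8 (-0.87 ± 0.20, 0.0153). The Ccr3 estimate rests on 6 counts in mLN Tconv.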

How the results depend on the processing

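Of 175 results (25 comparisons of 7 receptors), 65 were called as reported. A result was kept where it stayed called or stayed uncalled, so losses are to be read against the called ones. Kept were 173 with RLE factors (1 lost, 1 gained) and 156 without a filter (0 lost, 19 gained). With all 42 libraries in 1 fit 161 were kept (6 lost, 8 gained), and with the experiment letter as a block 166 (4 lost, 5 gained). DESeq2 kept 142 of 168 (2 lost, 24 gained), FPKM values 76 of 84 (6 lost, 2 gained), fits of only the groups compared 40 of 44 (2 lost, 2 gained), and a covariate that splits libraries by S number 126 of 133 (7 lost). The S numbers stand in the column names, and the split sets those up to 32 against those from 33. No label says that this split is a batch. Over 1960 results with 1 library left out, 1858 stayed called or uncalled as reported, 70 lost their call and 30 gained one. Leaving out both experiment A ileal Treg libraries, an alternative chosen after seeing the data, kept 48 of 49 and lost Ccr1 in ileal Treg over Tconv.

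The larger changes in the number of receptors called were as follows, with its value as reported in brackets. Smaller changes are not listed, such as the gain of Ccr3 in ileal Tconv with the block. With DESeq2 it was 3 (0) for genotype in ileal Treg, 3 (1) in synovial Treg, 2 (1) in synovial Tconv, jLN Treg and jLN Tconv, 3 (1) for cell type in synovium, and for the interactions 2 (0) for genotype by cell type in ileum, 1 (0) in synovium and jLN, and 2 (0), 1 (0) and 2 (1) for genotype by tissue in gut Treg, joint Treg and gut Tconv. With no filter it was 6 (3) for genotype in mLN Tconv, 2 (1) in synovial Tconv and jLN Treg, 3 (1) in jLN Tconv, 2 (1) for cell type in synovium, 1 (0) for genotype by cell type in ileum and mLN, 2 (0) in jLN, and 5 (1) for genotype by tissue in gut Tconv. With all 42 libraries it was 1 (0) for genotype in ileal Treg, 2 (1) in synovial Treg and Tconv, 3 (1) for cell type in synovium, and 1 (0) for genotype by cell type in ileum and synovium and genotype by tissue in joint Treg. With the block it was 2 (0) for genotype in ileal Treg, 0 (1) in synovial Treg and Tconv, 2 (1) in jLN Treg, 0 (1) for cell type in synovium and 1 (0) for genotype by cell type in ileum. On FPKM it was 2 (4) in mLN Treg, 0 (3) in mLN Tconv, 0 (1) in synovial Treg and 3 (1) in jLN Treg. Synovial Treg had 0 (1) with RLE factors, with its 2 groups alone and with the S number split, jLN Treg 2 (1) with its 2 groups alone, and gut Treg tissue 3 (6) within TNFdARE mice. The share of all genes called moved as well. In these comparisons it was 0.484% to 10.2% with DESeq2 (0.00598% to 5.7% as reported), 0.0487% to 3.09% with no filter (0.0188% to 5.7%), 0.103% to 15.8% with all 42 libraries (0.0188% to 1.7%), 0% to 10.4% with the block (0.0188% to 5.7%) and 0.206% to 6.05% on FPKM (0.156% to 5.7%). For genotype in synovial Treg it was 0.134% with RLE factors, 0.00677% with its 2 groups alone and 0.00557% with the S number split (0.156% as reported), for genotype in jLN Treg 7.81% with its 2 groups alone (5.7%), and for gut Treg tissue 6.62% within TNFdARE mice (29.2%). The cause was not tested.

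With 1 library left out, again for the larger changes only, the number ran from 0 to 1 for genotype in ileal Treg, 2 to 4 in mLN Treg, 1 to 4 in mLN Tconv, 0 to 3 in synovial Treg, 0 to 2 in synovial Tconv, and 1 to 2 in jLN Treg and Tconv, 0 to 3 for cell type in synovium, 0 to 1 for genotype by cell type at each of the 4 sites, 0 to 4 and 0 to 1 for genotype by tissue in joint Treg and gut Tconv, and 2 to 5 for tissue by cell type in joint. The share of all genes called then ran from 0.216% to 4.23% for genotype in ileal Treg, 1.42% to 5.55% in mLN Treg, 0.831% to 2.59% in mLN Tconv, 0% to 8.05% in synovial Treg, 0.147% to 1.5% in synovial Tconv, 2.05% to 6.75% in jLN Treg and 1.7% to 2.96% in jLN Tconv, 0.255% to 7.3% for cell type in synovium, 0% to 3.85% for genotype by cell type, 0.178% to 21.7% and 0.0469% to 0.721% for genotype by tissue in joint Treg and gut Tconv, and 4.23% to 19.9% for tissue by cell type in joint. Without WT synovial Treg B, the Cx3cr1 tissue effect in joint Treg reversed to -1.25 (3.80 without WT synovial Treg A) and its genotype by tissue interaction to 8.99 (-1.12 without A). The 1 WT library left without B had 0 counts. With 3 counts or fewer summed over a group, for Ccr3 and Cx3cr1 in WT mLN Tconv and Ccr1 in WT jLN Tconv, a lower level was not detectable at this depth.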
